A study of Homo sapiens with 16 samples.

Results

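The DLX genes DLX1 to DLX6 encode the human distal-less homeobox transcription factors. All 6 genes of the family, of 20046 genes with a probe on the array, were followed in ME180 cells given all-trans retinoic acid (ATRA). They were taken by gene symbol, 9 probes in all, and the family was chosen by the fitted differences of these same arrays at 3 h against vehicle, in which DLX5 and DLX3 were lower. The values at 3 h against vehicle are therefore given as a description, with no test of the members. DLX1, DLX3 and DLX5 gave a signal that could be tested, whereas DLX2, DLX4 and DLX6 stayed dim in every array.

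DLX proteins bind DNA through a homeodomain. In the mouse they pattern the branchial arches, the limb bud ectoderm and the skeleton, and they direct the formation of inhibitory neurons in the forebrain. The human genes lie as neighbouring pairs, DLX1 with DLX2 on chromosome 2, DLX3 with DLX4 on chromosome 17 and DLX5 with DLX6 on chromosome 7. In stratified epithelium DLX3 is known for its part in the terminal differentiation of keratinocytes. DLX5 is best known as a factor of bone and cartilage formation, and DLX1 for its part in the development of forebrain interneurons.

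ME180 is a squamous carcinoma line of the uterine cervix, established from a metastasis in the omentum. Total RNA was hybridised to 16 Illumina bead arrays in 4 groups of 4. Cells of the first group received DMSO, the vehicle, for a time the labels do not give, and those of the other groups received 10 µM ATRA, a ligand of the nuclear retinoic acid receptors, for 1, 3 or 6 h. All cells were grown in the same serum-containing medium, a single cell line stands for all groups, and nothing in the labels says that replicates came from separate cultures. A p-value here therefore stands for the spread among arrays, possibly a technical one.

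Values are the authors' quantile-normalized log2 intensities, and a probe was called dim where it stayed under a log2 value of 6, which 29.4% of the probes of each array reached. The number of arrays per group limits the precision. Of 10 squamous epithelial markers, 7 had a probe and all 7 stood at or above 6 in every array, with KRT5 between 13.44 and 14.13 and KRT14 between 11.79 and 13.26. Of 12 markers of fibroblasts, endothelium and blood cells, 11 had a probe; 6 of them were dim in every array, among them PTPRC, CD3E and PECAM1, and 2, CD68 and HBB, were at or above 6 in every array. The summed level of these 11, on the log2 scale, lay between 9.3 and 9.69 in DMSO, 9.11 and 9.75 at 1 h, 9.35 and 10.03 at 3 h and 9.55 and 10.47 at 6 h. None of the 5 that could be tested was called against DMSO. Over all genes and probes 0.57%, 0.521% and 0% were called at 1, 3 and 6 h. CDH5, a cadherin of endothelium, nevertheless read 6.9, 8.29, 4.9 and 8.04 at 3 h against 4.34 to 4.54 in DMSO, a log2 difference of 2.59 (adjusted p = 0.175 by limma, 0.0818 blocked on replicate 1 against the other arrays). The 6 h values of CDH5 were 7.36, 4.35, 7.06 and 4.45. PECAM1, another endothelial marker, stayed between 4.37 and 5.08. VWF, also endothelial, read 7.16, 7.21, 6.89 and 6.88 at 3 h, beside 5.93 to 7.06 in DMSO. Its 6 h values were 7.48, 6.19, 7.65 and 5.99, higher in replicates 1 and 3 as for CDH5. HBB, a globin gene, differed by 1.58 at 6 h (adjusted p = 0.974). The part of these markers in the DLX values was not tested.

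Some arrays stood apart, which bears on every comparison below. The 4 arrays numbered replicate 1 differed from the other 12 in 52.9% of the genes and probes tested. Relative to the other arrays they were lower by 1.37 for DLX1, by 1.03 for DLX3 and by 0.59 for DLX5 on the log2 scale, so each comparison was also fitted with this array set as a block.

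The retinoid response went against the label in part of the 6 h group. CYP26A1 and CYP26B1, which encode hydroxylases that clear retinoic acid and are induced by it, served as the check. CYP26A1 read 7.26, 8.58, 8.83 and 7.79 in DMSO replicates 1 to 4 and 12.99, 14.02, 12.18 and 13.58 at 3 h. At 6 h it read 12.95 and 13.13 in replicates 1 and 3, but 4.53 and 5.45 in replicates 2 and 4. CYP26B1 behaved alike, with 10.68 and 11.51 in 6 h replicates 1 and 3 against 6.70 and 7.12 in replicates 2 and 4, the latter within the DMSO range of 6.22 to 7.80. The arrays labelled 6 h replicates 2 and 4 thus showed no rise of the CYP26 genes, and CYP26A1 stood below every DMSO array in them. DHRS3, also read as a check of treatment, read 9.24 and 10.27 there, below the DMSO range of 11.14 to 11.48. It read 12.33 and 12.69 in 6 h replicates 1 and 3. Results for 6 h are given with and without replicates 2 and 4. A rise was not missing for every gene, since F3, which encodes tissue factor, read 9.13 and 10.01 in these arrays, above the highest DMSO array at 8.56. GPRC5A, a retinoid-inducible receptor gene, read 8.75 and 9.77 there, beside 8.08 to 9.76 in DMSO. At 1 h, CYP26A1 was above every DMSO array in replicates 1, 3 and 4 and read 7.51 in replicate 2. CYP26B1, F3 and GPRC5A read 9.07, 10.61 and 9.85 in that replicate 2 array, above every DMSO array. DHRS3 read 10.73 in it, below every DMSO array.

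**Figure D1:**
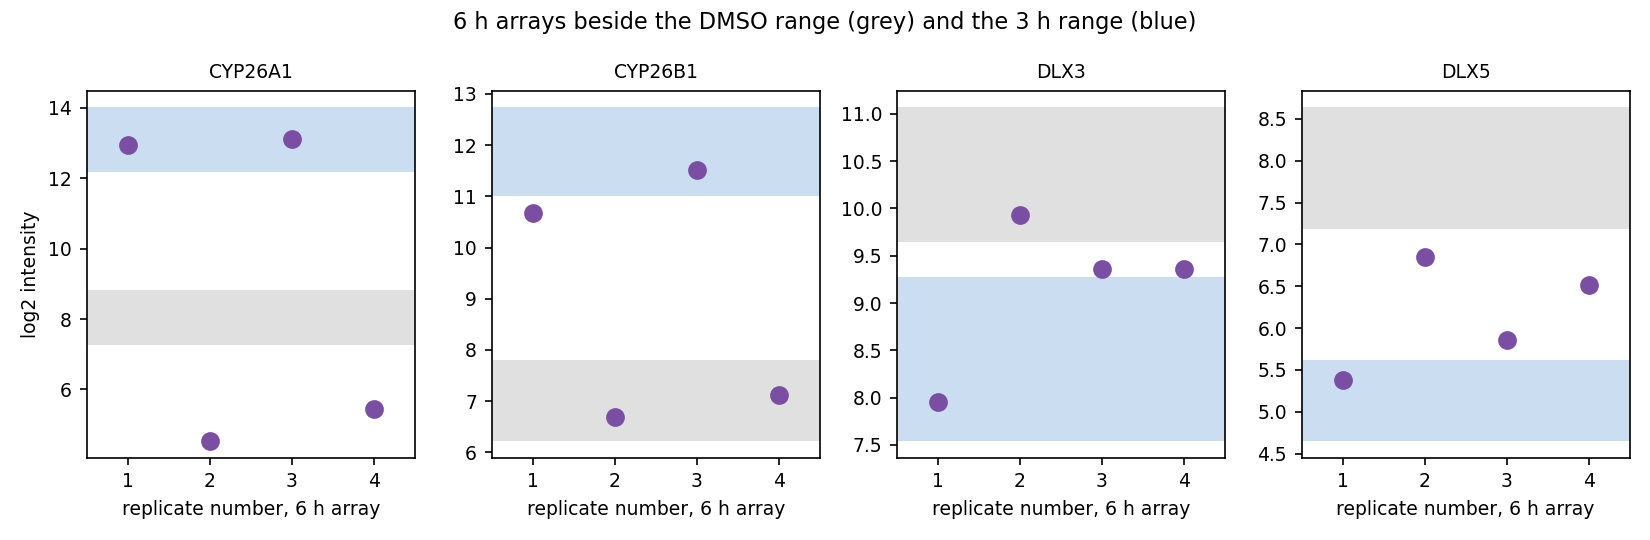
Log2 intensity of CYP26A1, CYP26B1, DLX3 and DLX5 in each 6 h array, by replicate number, over the range of the 4 DMSO arrays (grey band) and of the arrays at 3 h (blue band). For the CYP26 genes, replicates 2 and 4 sit in or below the grey band, while for DLX5 all 4 points sit under it, between 5.38 and 6.85.

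Of the 3 family members with a promoter entry in the RefSeq table used here (GRCh38.p14), the 250 bases before the gene's start are given on the gene's own strand, 5′ to 3′. DLX1 is shown because it gave a signal above the dim limit, and DLX2, its neighbour, and DLX6, the neighbour of DLX5, because they did not. DLX3, DLX4 and DLX5 have no entry there. Capitals mark matches, on either strand, to the motifs searched: the retinoic acid receptor half-sites AGGTCA and AGTTCA, direct repeats of either half-site with 2 or 5 bases between the copies, the homeodomain core TAATTA and the CCAAT box.
DLX1 (chr2:172085257-172085506, strand plus): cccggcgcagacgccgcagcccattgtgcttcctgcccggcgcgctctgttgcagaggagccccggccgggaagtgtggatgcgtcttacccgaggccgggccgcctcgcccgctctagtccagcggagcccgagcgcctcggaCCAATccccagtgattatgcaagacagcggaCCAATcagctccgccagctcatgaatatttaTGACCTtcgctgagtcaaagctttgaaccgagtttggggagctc
DLX2 (chr2:172102901-172103150, strand minus): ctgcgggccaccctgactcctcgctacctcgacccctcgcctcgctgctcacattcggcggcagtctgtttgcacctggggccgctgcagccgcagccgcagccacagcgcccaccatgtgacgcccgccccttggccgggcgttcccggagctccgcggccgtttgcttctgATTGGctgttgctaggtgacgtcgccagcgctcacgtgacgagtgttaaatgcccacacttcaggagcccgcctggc
DLX6 (chr7:97005303-97005552, strand plus): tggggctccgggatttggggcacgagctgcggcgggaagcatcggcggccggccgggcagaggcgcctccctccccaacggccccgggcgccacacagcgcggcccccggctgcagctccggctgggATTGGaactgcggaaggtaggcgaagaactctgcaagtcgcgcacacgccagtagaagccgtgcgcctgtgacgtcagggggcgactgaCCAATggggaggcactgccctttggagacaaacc
DLX1 held 1 AGGTCA half-site, on the opposite strand (read here as TGACCT) and 44 bases before the start, and 2 CCAAT boxes. DLX2 held 1 CCAAT box, on the opposite strand, and DLX6 held 2. An AGGTCA was found in 12.1% of the 35116 promoters of this length in the table, and a CCAAT box in 32%. None of the 3 windows held AGTTCA (8.8% of promoters), TAATTA (4.35%) or a direct repeat (0.00285% to 0.00854%). A direct repeat also counts as a match to its half-site. The windows were GC-rich, at 63.6% for DLX1, 68% for DLX2 and 70% for DLX6.

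As measured, DLX5 had the largest differences of the family, but its dim values at 3 h leave its order against DLX3 there unsettled. In the DMSO arrays it read 7.19, 8.64, 8.35 and 7.44 in replicates 1 to 4, a mean of 7.91 ± 0.70 (SD, n = 4). At 1 h of ATRA it read 6.80, 6.50, 6.18 and 7.31 (6.70 ± 0.48, n = 4), so that 1 h replicate 4 stood above the lowest DMSO array. At 3 h all 4 arrays were dim, at 4.67, 4.65, 5.62 and 5.33 (5.07 ± 0.48, n = 4). None of the 3 h arrays reached any DMSO or 1 h array. RNA of whole cultures was measured, so fewer cells expressing DLX5 and less RNA per cell cannot be told apart, here and for the other genes.

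At 6 h DLX5 read 5.38, 6.85, 5.86 and 6.52 (6.16 ± 0.66, n = 4). Replicates 1 and 3 were dim, and all 4 arrays lay below every DMSO array, including the pair without a CYP26A1 rise. Vehicle arrays were themselves spread: DMSO replicates 2 and 3 lay clearly above replicates 1 and 4, as they did for DLX3. F3 was split the other way, at 6.07 and 5.93 in DMSO replicates 2 and 3 against 8.56 and 8.32 in replicates 1 and 4. CYP26A1 was split as DLX5 was, at 8.58 and 8.83 in DMSO replicates 2 and 3 against 7.26 and 7.79 in replicates 1 and 4. CYP26B1 showed no such split.

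DLX3, the keratinocyte factor of the family, followed the same order. It read 9.65, 10.91, 11.07 and 10.02 in DMSO (10.42 ± 0.69, n = 4) and 9.0, 9.62, 9.17 and 9.76 at 1 h (9.39 ± 0.36, n = 4). Only 1 h replicate 4 stood above the lowest DMSO array. At 3 h it read 7.54, 7.89, 9.27 and 8.37 (8.27 ± 0.75, n = 4), all below the DMSO arrays but with replicate 3 inside the 1 h range. At 6 h it read 7.95, 9.93, 9.36 and 9.36 (9.15 ± 0.85, n = 4), and replicate 2 overlapped the DMSO range. DLX3 was above the dim limit in all 16 arrays.

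DLX1 showed the same order of means with smaller steps. The probe used in the test read 8.01, 9.52, 9.74 and 9.34 in DMSO (9.15 ± 0.78, n = 4) and 7.74, 9.08, 8.83 and 9.14 at 1 h (8.70 ± 0.65, n = 4). It read 6.92, 7.85, 8.50 and 8.16 at 3 h (7.86 ± 0.68, n = 4) and 7.40, 9.56, 8.05 and 8.93 at 6 h (8.48 ± 0.95, n = 4). Replicate 1 was the lowest array in every group, as it also was for DLX3, and the ATRA groups overlapped DMSO throughout when all arrays were taken.

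The other DLX1 probe (ILMN_2388445), nearer to the dim limit, gave means of 6.66 ± 0.47 in DMSO, 6.47 ± 0.41 at 1 h, 5.94 ± 0.21 at 3 h and 6.22 ± 0.31 at 6 h (SD, n = 4 each). The DLX1 probes kept one order of means and correlated at r = 0.687 over the 16 arrays, relative to the mean of each array set. They disagreed within the replicate 1 arrays, where the 3 h array was above the DMSO array by 0.29 in this probe, and below it by 1.09 in the tested one, on the log2 scale. In replicates 2 to 4 this probe was lower in every 3 h array than in every DMSO array, as were 10.9% of genes and probes tested. Those 3 h values were all dim, at 5.82 to 5.86, so the mean difference of 1.05 rests on dim values. The family was chosen through this comparison.

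**Figure D2:**
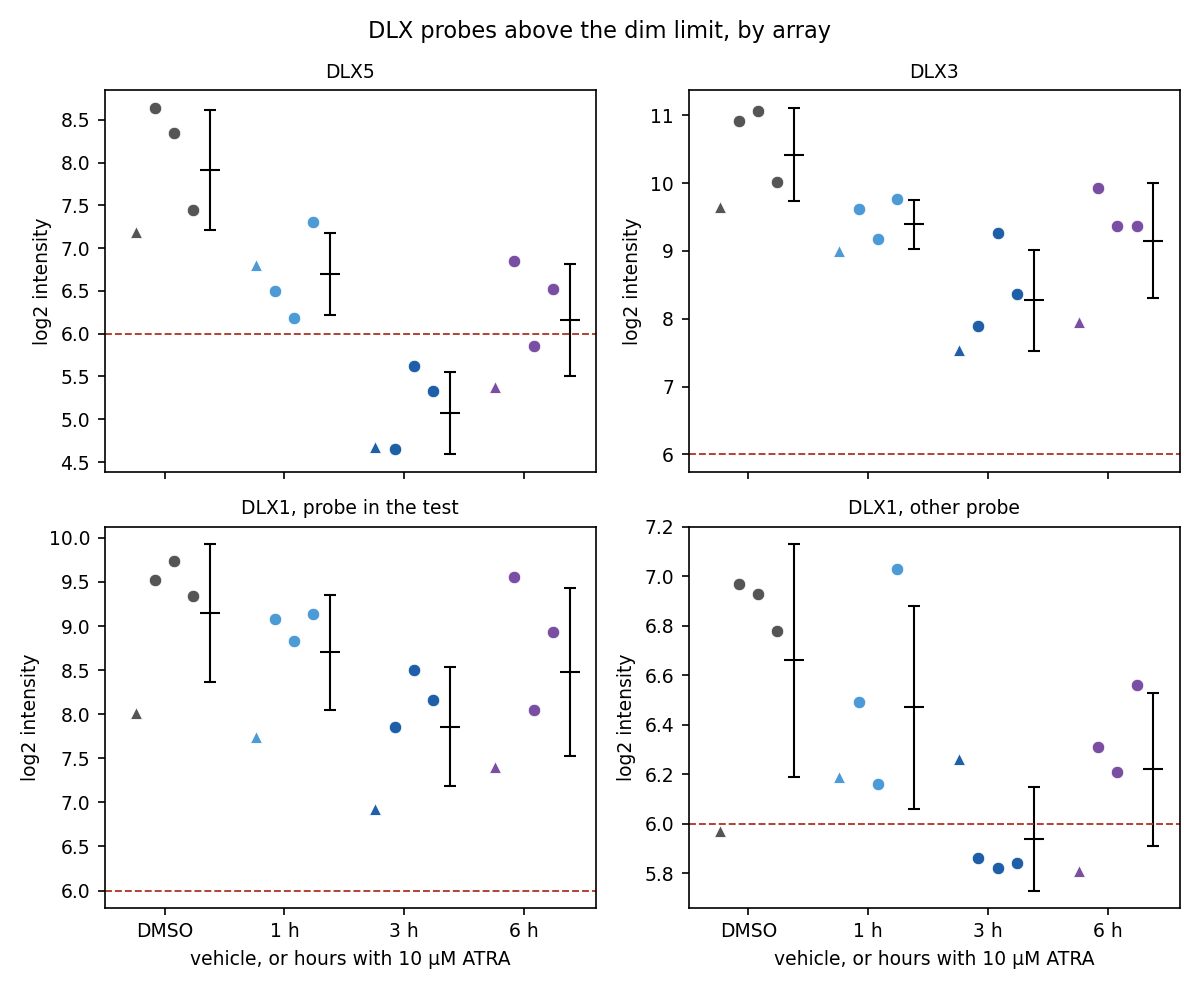
Log2 intensity of DLX5, DLX3 and both DLX1 probes in each of 16 arrays, by treatment. Triangles are replicate 1 arrays, circles replicates 2 to 4, black bars the mean ± SD of 4 arrays, and the dashed line the dim limit of 6. In all 4 panels the means run from DMSO through 1 h and 6 h down to 3 h.

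In 3 pairs of neighbouring genes, then, 1 member of each gave a signal above the dim limit and the other did not. The DLX2 probe lay between 4.37 and 4.88 over all arrays and the DLX6 probe between 4.34 and 5.01, around the array median of 4.74. The 3 DLX4 probes lay between 4.37 and 5.5 (probe A, ILMN_1750941), between 4.42 and 5.07 (probe B, ILMN_1771113) and between 4.36 and 4.58 (probe C, ILMN_2240099). For these genes the arrays give only an upper bound, and no fold change was taken. The probe of DLX6-AS1, a noncoding gene of the DLX5 and DLX6 locus, was dim too, between 4.63 and 5.51. It is the only one of 5 listed noncoding genes at DLX loci with a probe.

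**Figure D3:**
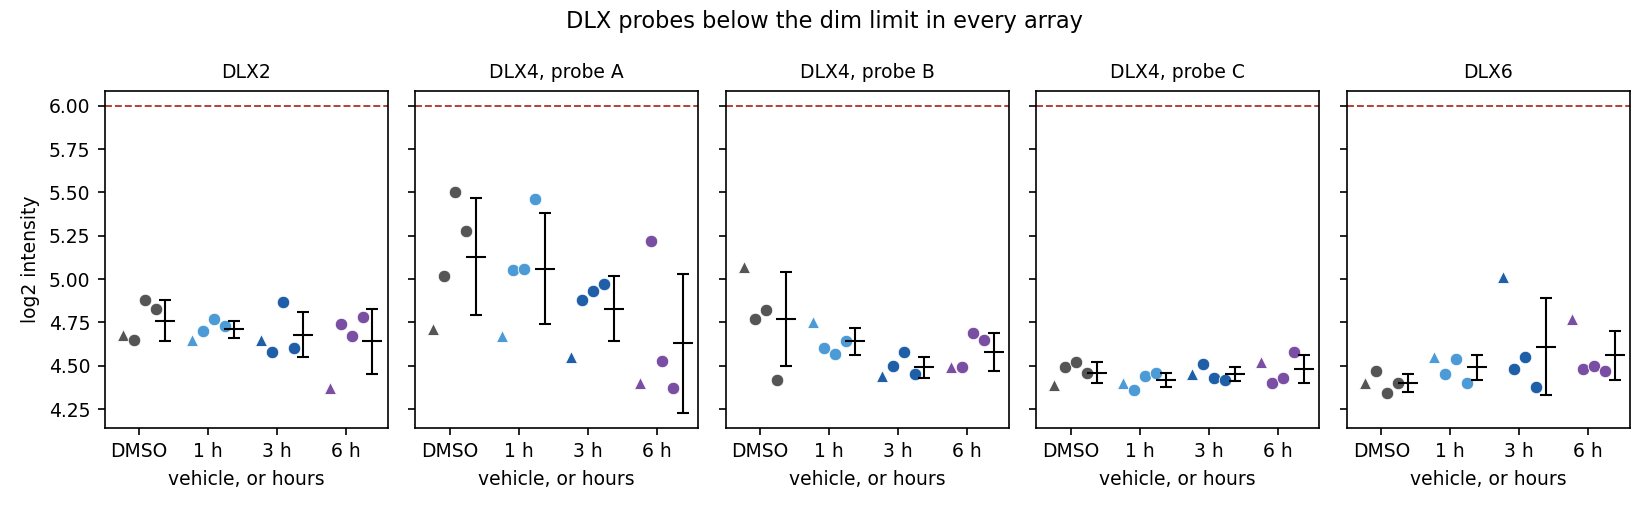
Log2 intensity of the DLX2, DLX4 and DLX6 probes in each array, by treatment, on one shared scale; symbols are as in the plot of the brighter DLX probes and the dashed line is the dim limit of 6. Every point is under the line, the highest being 5.5 for DLX4 probe A.

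At 1 h against DMSO none of the 3 DLX genes tested passed an adjusted p of 0.05, while 71 of 12467 genes and probes did (0.57%; limma with Benjamini-Hochberg adjustment). DLX5 differed by -1.21 (SE 0.39, unadjusted p = 0.00685, adjusted p = 0.514 by limma), a 2.31-fold lower mean. DLX3 differed by -1.03 (SE 0.45, unadjusted p = 0.0359, adjusted p = 1 by limma), a 2.04-fold lower mean. DLX1 differed by -0.46 (SE 0.50, adjusted p = 1 by limma), between -0.84 without DMSO replicate 1 and -0.14 without replicate 1 of the 1 h group. DLX5 and DLX3 were thus among the lowest differences of the genes and probes tested, at ranks 7 and 15 of 12467, without passing the test.

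The 1 h and 6 h comparisons with vehicle share their DMSO arrays with the one that chose the family. The 1 h differences are also given within each array set. In replicates 2 to 4 the 1 h arrays lay below every DMSO array for all 3 genes, as they did for 7.5% of all genes and probes. The differences there were -1.48 for DLX5, -1.15 for DLX3 and -0.52 for DLX1. In the replicate 1 arrays they were -0.40, -0.65 and -0.27. After blocking on the array set, the adjusted p by limma was 0.16 for DLX5, 0.213 for DLX3 and 0.68 for DLX1, against 117 calls in all (0.938%).

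At 3 h against DMSO, the comparison through which the family was chosen, the differences were -2.84 for DLX5, -2.15 for DLX3 and -1.30 for DLX1. The mean of DLX3 was 4.43-fold lower and that of DLX1 2.46-fold lower. That of DLX5 was at least 3.75-fold lower, with its dim 3 h values set at the limit of 6. The 3 h arrays were below every DMSO array for DLX5 and DLX3, as for 2.3% of genes and probes. In replicates 2 to 4 this held for DLX1 too, as for 10.9%. In that comparison 65 genes and probes were called (0.521%), 11 of them lower (0.0882%). The DLX genes were chosen through it, so calls of them there carry no weight. Only their changes under other settings are given, in the closing section and as a description. Leaving out 1 array moved the 65 to between 15 and 84, with 15 without DMSO replicate 2 or replicate 2 of the 3 h group, 19 and 28 without DMSO replicates 3 and 1, and 20 without replicate 4 of the 3 h group. After blocking on the array set 384 genes and probes were called (3.08%), 150 of them lower (1.2%). The differences within the array sets lay close together, at -2.95 in replicates 2 to 4 and -2.52 in replicate 1 for DLX5, -2.16 and -2.12 for DLX3, and -1.37 and -1.09 for DLX1.

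At 6 h against DMSO no gene or probe of the 12467 passed the test (0% called; 548 had an unadjusted p under 0.05 by limma). DLX5 differed by -1.75 (SE 0.39, unadjusted p = 0.000395, adjusted p = 0.547 by limma), and its mean was at least 2.95-fold lower with dim values set at the limit. All 4 of its 6 h arrays lay below every DMSO array, as did 0.955% of all genes and probes. Only 1 of the 12467 had a lower 6 h difference than DLX5. DLX3 differed by -1.27 (SE 0.45, unadjusted p = 0.0123, adjusted p = 1 by limma) and DLX1 by -0.67 (SE 0.50, adjusted p = 1 by limma). Leaving out DMSO replicate 1 gave -1.05 for DLX1, and leaving out replicate 1 of the 6 h group gave -0.31. DLX3 and DLX1 overlapped DMSO over all arrays. In replicates 2 to 4 the DLX3 arrays at 6 h lay below every DMSO array, as did those of 7.39% of genes and probes.

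Without the 6 h arrays that lacked the CYP26A1 rise, the 6 h differences from DMSO were larger, at -2.28 for DLX5, -1.76 for DLX3 and -1.43 for DLX1. Their adjusted p values by limma were then 0.0554, 0.339 and 0.499. DLX5 read 6.85 and 6.52 in the arrays left out, below the lowest DMSO array at 7.19, whereas DLX1 read 9.56 and 8.93 in them, next to the DMSO mean of 9.15. Over all arrays and blocked on the array set, the adjusted p was 0.131 for DLX5, 0.148 for DLX3 and 0.316 for DLX1 by limma, and no gene or probe was called.

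**Figure D4:**
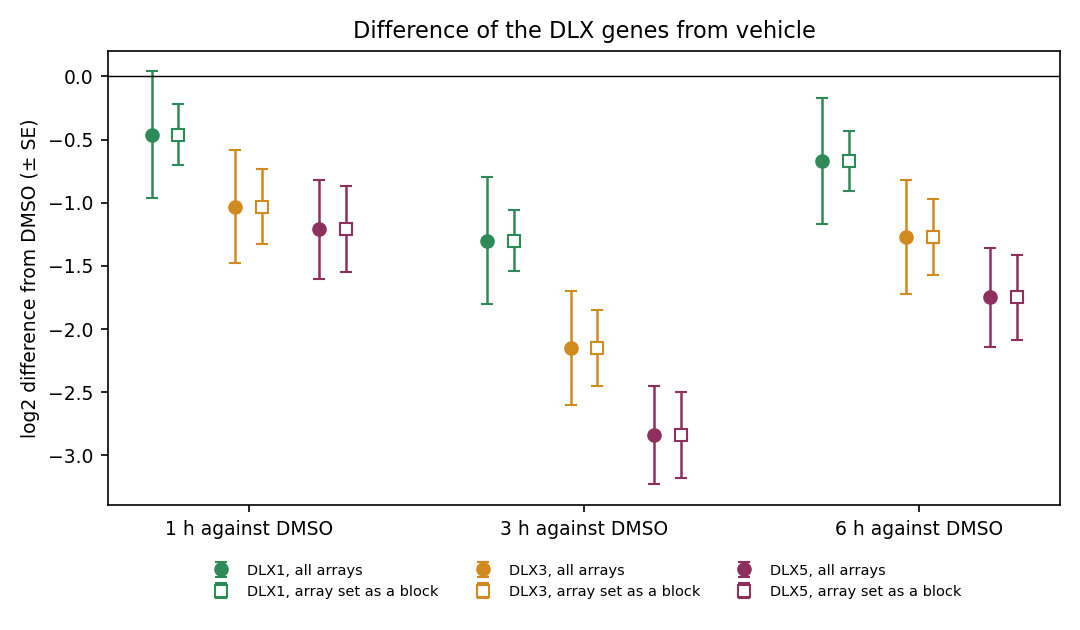
Log2 difference from DMSO ± SE for DLX1, DLX3 and DLX5 at 1, 3 and 6 h; filled circles are the fit to all 16 arrays and open squares the same fit blocked on the array set. The block leaves the differences as they are and shortens the bars most for DLX1, from an SE of 0.50 to 0.24.

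Steps within the ATRA time course were tested as well. From 1 h to 3 h DLX5 differed by -1.63 (SE 0.39, adjusted p = 0.174 by limma), DLX3 by -1.12 (adjusted p = 0.805) and DLX1 by -0.84 (adjusted p = 1), beside 23 calls in all (0.184%). With its dim 3 h values set at the limit of 6, the DLX5 mean was at least 1.62-fold lower. The means of DLX3 and DLX1 were 2.18-fold and 1.79-fold lower, so the size of the DLX5 step beside theirs is not settled. Every 3 h array lay below every 1 h array for DLX5, as for 1.37% of genes and probes. The DLX1 arrays did so in replicates 2 to 4, as did those of 6.32%. After blocking on the array set DLX5 passed at an adjusted p of 0.0426 by limma, with 82 calls in all (0.658%). With the replicate number as the block in its place DLX5 did not pass (adjusted p = 0.0731 by limma). This comparison uses the 3 h arrays through which the family was chosen.

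From 3 h to 6 h the means stood higher for all 3 genes, by 1.09 for DLX5, 0.88 for DLX3 and 0.63 for DLX1, each with an adjusted p of 1 by limma. The DLX5 step rests on dim values, in 4 arrays at 3 h and 2 at 6 h. No gene or probe was called there (0%; 424 had an unadjusted p under 0.05). Without 6 h replicates 2 and 4 these steps shrank to 0.55 for DLX5 and 0.39 for DLX3, and that of DLX1 turned to -0.13.

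The comparison of 6 h with 1 h shares no array with the one that chose the family. The differences were -0.54 for DLX5, -0.24 for DLX3 and -0.21 for DLX1, each with an adjusted p of 1 by limma, beside 43 calls in all (0.345%). The groups overlapped for all 3 genes. Within replicates 2 to 4 the value of DLX3 was 0.03, and within replicate 1 it was -1.06. Without 6 h replicates 2 and 4 the differences were -1.07, -0.74 and -0.97.

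In the order of means, DMSO was highest, followed by 1 h, 6 h and 3 h, for DLX5, DLX3 and DLX1 alike. No step between neighbours in that order, DMSO to 1 h, 1 h to 6 h or 6 h to 3 h, passed the test over all arrays in any of the 3 genes.

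Likeness of the DLX genes was taken from array to array. Over the 16 arrays, each value taken relative to the mean of its array set, DLX5 and DLX3 correlated at r = 0.966 (Spearman's rho 0.962), and each was the gene most like the other among 9650 genes with a symbol. DLX1 correlated with DLX5 at 0.912 (rho 0.924) and with DLX3 at 0.893 (rho 0.906). The arrays share treatments and the 3 h and DMSO arrays that chose the family, so these values are a description. Over the 8 arrays at 1 h and 6 h alone, r was 0.874 for DLX3 with DLX5, and DLX3 then ranked 43rd in likeness to DLX5. It was 0.709 for DLX1 with DLX5 and 0.601 for DLX1 with DLX3. DLX5 then ranked only 483rd in likeness to DLX1, and DLX3 880th, of 9650 genes. Taken relative to the group means as well, the 3 values were 0.841, 0.699 and 0.632. Differences among the arrays of a group, such as the split of the 6 h arrays, remain in these values.

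After DLX3, the genes most like DLX5 over the 16 arrays were EPN3 (r = 0.935), IRX3 (0.932), SAP130 (0.927) and PLEKHF2 (0.924). EPN3 encodes an epsin of the endocytic machinery, IRX3 an Iroquois homeobox factor and SAP130 a subunit of the Sin3 corepressor complex. After DLX5, those most like DLX3 were OVOL2 (0.95), PLEKHF2 (0.934), RTL10 (0.933) and SALL2 (0.925). OVOL2 and SALL2 are zinc finger transcription factors, OVOL2 one that maintains epithelial identity. Those most like DLX1 were CCDC9B (0.948), FHDC1 (0.921), IRX3 (0.917) and ZBTB4 (0.913), followed by DLX5.

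The differences of these genes were smaller than those of DLX5 at each time. At 3 h against DMSO they ran from -0.48 for SAP130 to -1.54 for SALL2, and at 1 h from -0.11 for SAP130 to -0.72 for EPN3. FHDC1 and CCDC9B, alike to DLX1, differed by -1.31 and -1.05 at 3 h, next to -1.30 for DLX1 itself.

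The genes around the DLX pairs were read next. Of the 12 nearest protein-coding genes, 2 on each side of each pair, 6 passed the filter. None of the 6 was called at 1, 3 or 6 h against DMSO, beside 0.57%, 0.521% and 0% of all genes and probes. Their differences at 3 h ran from -0.47 for SDHAF3, an assembly factor of succinate dehydrogenase beyond DLX5 and DLX6, to 0.20 for ITGA3, an integrin subunit gene next to DLX3 and DLX4. HAT1 and ITGA6, on either side of DLX1 and DLX2, differed by -0.33 and 0.04.

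Signals and factors that act upstream of DLX genes in development were taken next, with endothelin, BMP, WNT and FGF components among 32 listed genes, of which 19 could be tested. EDN1, whose product endothelin 1 induces Dlx5 and Dlx6 in the mouse branchial arches, rose at 1 h from 8.04 to 10.75, 6.57-fold (log2 difference 2.72, SE 0.49, adjusted p = 0.0132 by limma). Its difference was 0.99 at 3 h (adjusted p = 0.702) and 0.70 at 6 h (adjusted p = 1). ID2, a BMP-responsive inhibitor of basic helix-loop-helix factors, fell at 3 h from 10.39 to 8.07, 4.98-fold (-2.32, SE 0.42, adjusted p = 0.0222 by limma). Removing DMSO replicate 2 or 3, or else replicate 3 or 4 of the 1 h group, ended the EDN1 call (adjusted p up to 0.0683). Removing any of DMSO replicates 1 to 3, or else replicate 2 or 4 of the 3 h group, ended that of ID2 (up to 0.0998). ID3, a relative of ID2, passed at 3 h once the array set was blocked (-1.01, adjusted p = 0.0295 by limma). No other gene of the list passed against DMSO with or without the block. Of all genes and probes 0.57%, 0.521% and 0% passed at 1, 3 and 6 h, and 0.938%, 3.08% and 0% with the block. The list's median difference was 0.10 at 1 h, -0.31 at 3 h and -0.19 at 6 h, beside -0.03, -0.04 and -0.01 over all genes and probes.

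Of 9 listed proteins that bind DLX factors, 7 could be tested. None was called against DMSO, beside 0.57%, 0.521% and 0% of all genes and probes at 1, 3 and 6 h. USF1 passed, once the array set was blocked, at 6 h against 1 h (0.93, adjusted p = 0.0497 by limma). The median difference of the 7 was -0.11 at 1 h, -0.09 at 3 h and -0.19 at 6 h. The homeodomain proteins MSX1 and MSX2, which bind DLX proteins and oppose them in the mouse, differed by -0.56 and -0.82 at 3 h, with adjusted p values of 0.682 and 0.629 by limma. MSX2 differed by -1.06 at 6 h (adjusted p = 1).

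Genes described as targets of DLX factors in skin, bone, placenta, brain or tumours numbered 33, and 10 of them could be tested. MYC, a growth-promoting transcription factor described as a target of DLX5 in tumour cells, rose at 1 h from 11.33 to 12.54, 2.32-fold (1.21, SE 0.25, adjusted p = 0.0334 by limma). Its difference was 0.80 at 3 h (adjusted p = 0.219) and 0.10 at 6 h (adjusted p = 1). MYC passed at 3 h too once the array set was blocked (adjusted p = 0.0191 by limma), as did IRS2, an adaptor of insulin signalling, at 1 h (1.16, adjusted p = 0.0363). Removing any of DMSO replicates 1 to 3, any of replicates 2 to 4 of the 1 h group, or replicate 3 or 4 of the 3 h group ended the MYC call at 1 h (adjusted p up to 0.167 by limma). At 6 h against 1 h MYC differed by -1.12 (adjusted p = 0.0888 by limma). It passed there with the array set blocked (adjusted p = 0.00283 by limma), beside 84 calls in all. No other listed target passed against DMSO with or without the block, and the medians were 0.13, 0.12 and 0.01 at 1, 3 and 6 h. Of all genes and probes 0.57%, 0.521% and 0% passed at these times, and 0.938%, 3.08% and 0% with the block.

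Other homeobox genes served as the closest family for comparison. Of 192 listed, 167 had a probe and 49 could be tested. At 1 h ISL1, a LIM homeodomain factor, fell 2.26-fold (-1.18, SE 0.16, adjusted p = 0.0013 by limma) and TGIF1, a repressor that restrains retinoid and TGF-beta signalling, rose 2.43-fold (1.28, SE 0.21, adjusted p = 0.00548). At 3 h TGIF1 alone was called with all arrays, at 0.98 (adjusted p = 0.0493), and that call ended on removing any one of 13 of the 16 arrays (adjusted p up to 0.2), all but DMSO replicate 4 and replicate 1 of the 1 h and 3 h groups. The 1 h calls of ISL1 and TGIF1 held without any single array. With all arrays no other of the 49 was called against DMSO. Over all genes and probes 0.57% were called at 1 h and 0.521% at 3 h. After blocking on the array set 8 of the 49 were called at 3 h, beside 3.08% of all genes and probes. Of these 6 were lower (HOXB5, HOXB7, HOXC6, IRX3, LHX2 and MNX1), beside 1.2% over all, and 2 were higher (TGIF1 and ZHX2).

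DLX5 lay below all 49 at each of the 3 times. The lowest of them were ISL1 at 1 h (-1.18, beside -1.21 for DLX5), LHX2 at 3 h (-1.37, beside -2.84) and LHX3 at 6 h (-1.26, beside -1.75). DLX3 lay below all of them but ISL1 at 1 h, and below all at 3 h and 6 h. For DLX1, LHX2 and HOXC6 (-1.31) were lower at 3 h. These differences between genes were not tested. The DLX family was chosen by its 3 h differences from DMSO, so its low place at 3 h follows from that choice. The 1 h and 6 h differences share the same DMSO arrays, so the ranking is a description only. The median of the 49 was -0.03 at 1 h, -0.33 at 3 h and -0.10 at 6 h, with 26, 38 and 33 of them below 0. ISL1 differed from DMSO by -0.08 at 6 h (adjusted p = 1) and was higher than at 1 h by 1.09 (adjusted p = 0.0029 by limma), whereas no such step was called for a DLX gene.

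**Figure D5:**
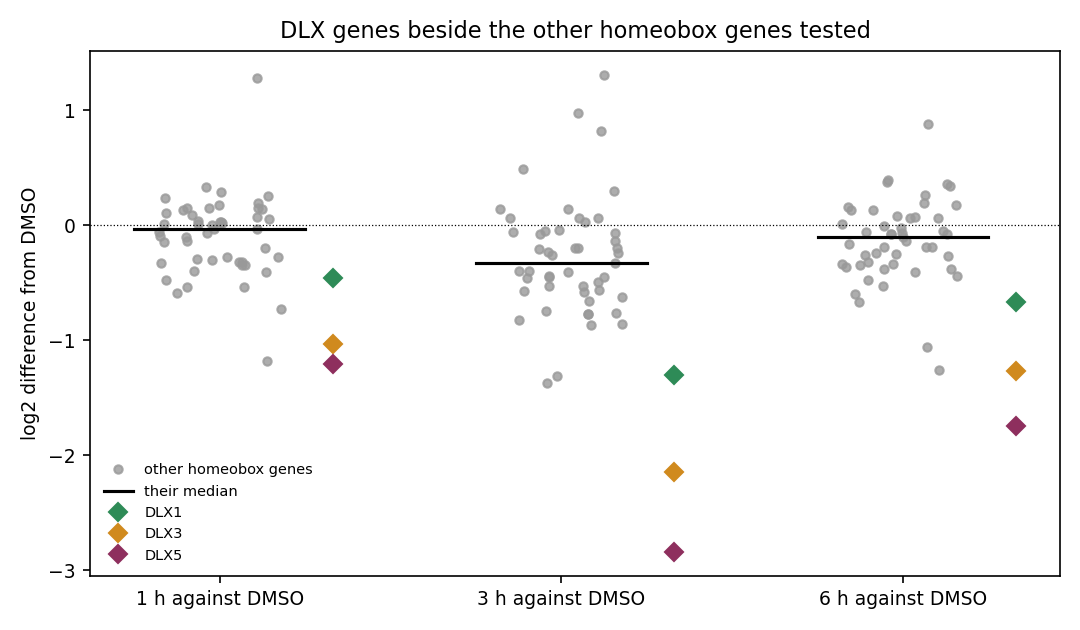
Log2 difference from DMSO at 1, 3 and 6 h for the 49 other homeobox genes tested (grey points, spread sideways for legibility; black line, median) and for DLX1, DLX3 and DLX5 (diamonds). The DLX5 diamond is the lowest symbol at each time, at -1.21, -2.84 and -1.75. The DLX family was chosen by its 3 h differences from DMSO, and the other homeobox genes were not.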

How the data were processed

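Total RNA of ME180 cells was labelled with biotin and hybridised to Illumina bead arrays, per the labels' protocols. The authors' deposited values are log2 intensities with 1 value per probe and array, already quantile normalized as judged from the values. limma is named in the submitters' processing notes without a version; how background was corrected, and which log base was used, is not stated there or in the labels. Base 2 was taken because the highest value is 14.73. The deposited table of non-normalized values served only for its row order, since its 32 value and detection columns match no sample label. The analysis planned from it was replaced by one on the log2 values.

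In that row order the values of the 4 replicate 1 arrays stood 1 row too low from row 10570 of 47230 onward, 77.6% of the rows, and were moved up. Their correlation with the other arrays across probes was 0.979 before that row and 0.325 after it as deposited, and 0.979 once moved. The DLX probes lie at rows 8032 to 8040, before the break.

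Probes were named from the platform annotation, in which 30113 probes have 1 symbol, 8 have several and 17109 are not listed. Probes at or above a log2 value of 6 in at least 4 of 16 arrays were kept (15271), with the probe of highest mean per gene. This left 12467 features, of which 9651 carry a symbol and 2816 carry none. limma 3.58.1 (R 4.3.3) was fitted to the 4 groups at once, with eBayes (residual degrees of freedom 12, prior 3.04), two-sided tests and Benjamini-Hochberg adjustment over all 12467, called at 0.05. The script was tested on simulated data. With dim arrays, a fold was computed with values under 6 set to 6.

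Genes named from each list are those past the threshold against DMSO, and for each tested DLX gene the 5 genes of highest r. MSX1, MSX2, LHX2, LHX3, HOXC6, the genes called only after blocking, CDH5, VWF, HBB, F3, GPRC5A, DHRS3 and the flanking genes were named after their values were seen. The family, the lists and the tests were chosen with earlier results of these data known. Alternatives covered the row move, the array set, the replicate block, the groups in the fit, the filter, the probe choice, the normalization, the eBayes settings and leaving out arrays.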

Additional observations from a re-analysis of the deposited data

Results flagged for a closer look

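Of 36 group-and-probe combinations checked for a single far value, 2 had one, and chance flags about 1 in 20. The DLX1 probe not used in the test (ILMN_2388445) read 6.26 in 3 h replicate 1, against 5.82 to 5.86 in the other 3 h arrays. The DLX6 probe (ILMN_2225151) read 4.77 in 6 h replicate 1, against 4.47 to 4.5 in the other 6 h arrays, with all of these values under the dim limit of 6. Both far values come from replicate 1 arrays, and the part of the array set in them was not tested.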

How the results depend on the processing

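Of 549 values of the DLX genes under the alternatives, 525 kept their sign and call. Another 3 newly passed the threshold, 17 no longer passed it and 4 changed sign. All 17 were at 3 h against DMSO, which chose the family and is described only. On leaving out 1 array, only DLX3 lost the threshold there, which is likewise a description and no support for DLX5 or DLX3. Leaving out single arrays moved those 3 h differences between -3.08 and -2.59 for DLX5, -2.48 and -1.9 for DLX3 and -1.68 and -0.98 for DLX1. At 3 h against 1 h the number of DLX genes called moved from 0 to 1 after blocking on the array set. The 4 changes of sign were those of DLX3 at 6 h against 1 h in replicates 2 to 4 (0.03), DLX3 (0.16) and DLX1 (0.15) there without 6 h replicate 1, and DLX1 at 6 h against 3 h without 6 h replicates 2 and 4 (-0.13), a setting chosen after seeing the data. Leaving out single arrays moved the 6 h against 1 h difference from -0.57 to 0.15 for DLX1 and from -0.50 to 0.16 for DLX3. The calls of EDN1, ID2, MYC, ISL1 and TGIF1 were lost with the rows as deposited. With no filter the adjusted p by limma was 0.0544 for EDN1, 0.0816 for ID2 and 0.0746 for MYC. With only the 2 groups in the fit it was 0.136 for MYC, 0.069 for TGIF1 at 1 h and 0.102 for ISL1 at 6 h against 1 h, without the 6 h arrays 0.0766 for MYC, and in replicates 2 to 4 it was 0.0704 for ID2. TGIF1 at 3 h lost its call in 7 of 15 settings other than leaving out 1 array. Over all genes and probes the rows as deposited gave 13 calls at 1 h and 0 at 3 h, no filter gave 25 at 3 h, and leaving out 6 h replicates 2 and 4 gave 116 at 3 h and 31 at 6 h. Leaving out DMSO replicate 2 moved the 71 calls at 1 h to 47, and leaving out 1 h replicate 4 moved the 23 at 3 h against 1 h to 13. At 3 h against 1 h the count of 23 ranged from 2 (rows as deposited) to 82 (array set block), and at 6 h against 1 h that of 43 from 12 to 84 in those settings. The replicate numbers did not pair the arrays: within replicates 2 to 4, 8 of 18 same-number pairs correlated above 0.1 (range -0.591 to 0.64), and 1 of 12 arrays correlated best with its own number. With the replicate block 117, 341 and 0 genes and probes were called at 1, 3 and 6 h against DMSO, and DLX5 at 3 h against 1 h had an adjusted p of 0.0731 by limma. The limits are the unstated culture of origin, the displaced rows, the 6 h arrays without a CYP26 rise and the dim values of DLX2, DLX4, DLX6 and, at 3 h, DLX5.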
